A study of Mus musculus with 8 samples.

Results

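The genes described here encode 10 enzymes that build glycogen or take it apart: Pgm1, Pgm2, Ugp2, Gyg, Gys2, Gys1, Gbe1, Pygl, Phka2 and Gaa. They were chosen by name, as the probes whose annotation gives 1 of these symbols alone. All 10 were found, on 15 probes, among 19532 named genes and 41174 probes, and no filter on low values was applied. RNA of each mouse's liver was hybridised to its own 1-colour Agilent array. The mutant group was 4 mice with the mper2brdm1 mutation of the clock gene Per2, and the other group was 4 wild-type mice. All 8 were of mixed 129sv and C57Bl/6 background, came from the same cohort and were killed after 8 h of starvation, and neither sex nor age is given in the labels. The time of day of killing is not reported here. The groups were not followed over the day, so a lower level and a shifted daily rhythm cannot be told apart. The mutation is a germ line deletion that removes part of the protein-interaction region of Per2, so every cell type of the animal carries it.

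Glycogen is the branched glucose polymer in which the liver stores sugar after a meal, and it is drawn down during a fast. Glucose 6-phosphate is turned into glucose 1-phosphate by phosphoglucomutase, joined to UTP to make UDP-glucose, and added by glycogen synthase to chains that start on glycogenin and are branched by the branching enzyme. Phosphorylase, switched on by phosphorylase kinase, removes glucose units in the cytosol, while acid alpha-glucosidase digests glycogen in the lysosome.

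The values are the authors' normalised values on a log scale, with the median over all 8 mice subtracted from every probe. They show differences between mice and no expression level, so levels of different genes cannot be compared and markers that are absent cannot be recognised. The log base is not given. It was taken as 2 from the range of the numbers, every fold printed rests on that, and a higher number was read as a brighter spot. Each array was shifted to a common 75th percentile. Differences are given in log2 units, mutant mean minus wild-type mean, ± the standard error from limma. A gene passed when its p, adjusted by Benjamini and Hochberg's method over all 28042 rows of genes and unnamed probes, was under 0.05. The samples came from different animals, so p-values measure the spread between mice.

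Some arrays stood apart, and transcripts used as markers of other tissues differed between them. The control features of wild type replicates 2 and 3 lay at -0.66 and -0.43, against -0.04 to 0.13 on the other 6 arrays. The mean of 6 skeletal muscle markers ran from -3.22 to 0.42 in the mutants and from -0.35 to 2.49 in wild type, although 0 of the 7 muscle genes passed. Of 6 squamous epithelium markers 5 were lower in the mutants, with list means of -2.03 to -1.67 against 1.42 to 4.19. Of 11 Kupffer cell markers 10 were higher, with means of 0.46 to 0.76 against -0.78 to -0.30. The 8 measured hepatocyte markers had means of -0.16 to 0.07 in mutants and -0.02 to 0.11 in wild type, and Ttr (-0.71) and Apoc3 (-0.45) were lower. Among 3 erythroid markers 2 were lower, and among 6 of stellate cells and fibroblasts 3 were higher and 1 lower. Stomach and pancreas had 1 of 6 lower and 1 higher. The pancreas gene Cpa1 ran from -6.30 to 1.48 in mutants and from -2.56 to 3.22 in wild type. Lymphocyte and neutrophil lists had 1 higher marker each, and 0 of 6 endothelial markers passed. The part of these other cells in the results was not tested except where a value is given. In whole liver, fewer cells of a type and less RNA per cell cannot be told apart. The Per2 probes themselves moved in opposite directions, by -1.70 and 2.54, and their places in the transcript were not given.

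The stretches upstream of Ugp2, Gbe1 and Pgm1 are shown because these genes passed as lower in the mutants, as described below. That of Gaa is shown because, among the 9 genes with a listed start, it alone holds the letters CACGTG. Whether the motifs bear on the differences was not tested. RefSeq sequences of GRCm38.p6 were matched by symbol for 9 of the 10 genes, all but Gys2, with 10 listed starts. Each line gives the 250 bases before a listed start, 5′ to 3′, and capitals mark motif matches on either strand.
Ugp2, chr11:21371268-21371517, minus strand: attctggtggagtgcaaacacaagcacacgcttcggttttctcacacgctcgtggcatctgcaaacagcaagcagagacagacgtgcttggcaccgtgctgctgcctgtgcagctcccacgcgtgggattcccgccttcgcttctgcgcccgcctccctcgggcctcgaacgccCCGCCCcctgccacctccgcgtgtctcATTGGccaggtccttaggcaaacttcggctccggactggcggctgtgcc
Ugp2, chr11:21370630-21370879, minus strand: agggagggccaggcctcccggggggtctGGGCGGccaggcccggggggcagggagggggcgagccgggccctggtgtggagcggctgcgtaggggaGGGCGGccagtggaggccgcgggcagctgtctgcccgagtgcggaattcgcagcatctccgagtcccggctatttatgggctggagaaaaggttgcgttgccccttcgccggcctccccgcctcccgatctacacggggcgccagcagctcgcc
Gbe1, chr16:70313699-70313948, plus strand: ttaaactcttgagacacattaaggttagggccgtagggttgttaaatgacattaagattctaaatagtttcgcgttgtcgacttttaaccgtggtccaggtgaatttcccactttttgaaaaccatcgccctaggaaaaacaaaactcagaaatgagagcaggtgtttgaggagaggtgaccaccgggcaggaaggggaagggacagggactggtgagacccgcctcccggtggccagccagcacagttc
Pgm1, chr4:99929201-99929450, plus strand: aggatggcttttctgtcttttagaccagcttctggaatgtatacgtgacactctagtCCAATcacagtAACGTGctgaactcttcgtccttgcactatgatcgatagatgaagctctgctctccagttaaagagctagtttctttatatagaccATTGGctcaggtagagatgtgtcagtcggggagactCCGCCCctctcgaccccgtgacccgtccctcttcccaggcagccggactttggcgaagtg
Gaa, chr11:119267713-119267962, plus strand: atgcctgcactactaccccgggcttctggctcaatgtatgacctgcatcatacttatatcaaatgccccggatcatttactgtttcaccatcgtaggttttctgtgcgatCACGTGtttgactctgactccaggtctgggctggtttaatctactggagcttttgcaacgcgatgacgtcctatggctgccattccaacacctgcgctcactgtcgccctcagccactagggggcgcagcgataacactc

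The motifs searched were the E-box CACGTG, bound by the clock activators, its variant CACGTT, the D-box as TTATGTAA or TTATGCAA, the GC box GGGCGG and the CCAAT box. No match of 1 motif overlapped a match of another in the lines shown. CACGTG was found once among the 10 upstream stretches, 140 bases before the Gaa start, and 6.02% of the 32851 stretches in the whole table hold it. CACGTT was found once, as AACGTG 182 bases before the Pgm1 start, and 3.85% of all stretches hold it. Neither D-box form was found, and 1.5% of all stretches hold one. GC boxes were found in 8 of the 10 stretches, against 32.7% of all, and CCAAT in 4 of the 10, against 33.8%. The Gbe1 stretch holds none of these letters. These matches describe letters in a short window and not binding sites.

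Of the 10 genes 4 passed, all lower in the mutants: Ugp2, Gbe1, Gys2 and Pgm1. These 4 act in the steps that lead from glucose 6-phosphate to branched glycogen, as do most of the 10 listed genes. Over all rows 8.93% passed as lower and 15.5% passed in either direction, and among named genes 10.5% passed as lower. At an adjusted p under 0.01 the same 4 genes passed, against 6.12% of rows. At an unadjusted p under 0.05 per probe, the selection that the study states, 10 of the 15 probes of these genes were lower and 0 were higher, against 18.3% of all probes lower. The 10 probes belong to 8 genes. No glycogen enzyme gene rose by the limma test, where 6.52% of rows did. An unadjusted p under 0.05 was found for 7 of the 10, all lower, against 30.3% of all rows in either direction. The median difference of the 10 genes was -0.64, against 0.08 for all rows and 0.01 for all named genes, and 8 of the 10 differences were below 0. That median was -0.20 with the mean of skeletal muscle markers as a covariate and -0.86 with RefSeq mRNA probes only, both described below and both chosen after seeing the data. The groups did not overlap, with mutants lower, for 5 genes, the fifth being Gys1, against 14.6% of all rows.

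**Figure D1:**
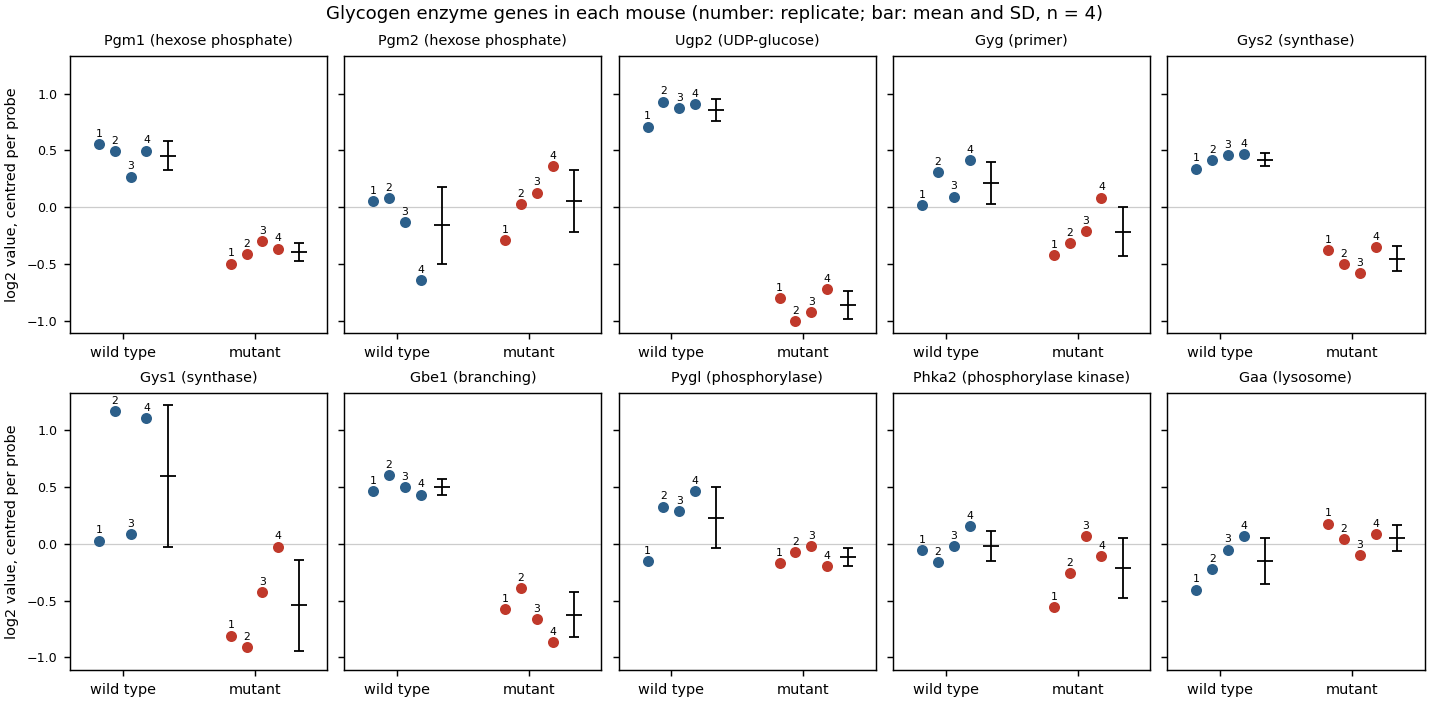
Each panel plots the centred log2 value of 1 enzyme gene in the 4 wild-type and 4 mutant mice, numbered by replicate, with the group mean and SD. Ugp2, Gbe1, Gys2 and Pgm1 separate the groups by more than the spread within them, while Gys1 is spread over more than 1 log2 unit in wild type.

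Phosphoglucomutase stands at the entry to the pathway. Pgm1, the main enzyme that interconverts glucose 6-phosphate and glucose 1-phosphate, was at -0.50, -0.42, -0.30 and -0.36 in the mutants, in the order of replicates 1 to 4, and at 0.56, 0.49, 0.27 and 0.50 in wild type. The groups were separate, and wild type replicate 3 was the closest to the mutants. Pgm1 fell by 0.85 ± 0.11 (1.80-fold, limma adjusted p = 0.00247). Pgm2, whose human counterpart acts mainly on pentose phosphates, was at -0.29, 0.03, 0.13 and 0.36 in mutants and 0.05, 0.08, -0.13 and -0.64 in wild type. These groups overlapped, with wild type replicate 4 the lowest of all 8 mice. Its difference of 0.22 ± 0.21 did not pass (limma adjusted p = 0.462, 95% interval -0.26 to 0.69). The 2 mouse symbols have been exchanged in the past, since RefSeq lists each as a synonym of the other, and the genes were told apart here by the gene ID in the probe annotation.

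Ugp2, the UDP-glucose pyrophosphorylase that supplies the glucose donor for synthesis, had the largest difference and the smallest p of the 10 genes. Averaged over its 2 probes it was at -0.80, -1.0, -0.92 and -0.72 in mutants and at 0.71, 0.93, 0.87 and 0.90 in wild type. Every mutant was thus more than 1 log2 unit below every wild-type mouse. Ugp2 fell by 1.72 ± 0.11 (3.28-fold, limma adjusted p = 0.000237), and it ranked 39 of 28042 rows by p. The probes gave the same picture, A_51_P475580 at -1.88 ± 0.12 and A_52_P42242 at -1.56 ± 0.10, each tested over all probes (limma adjusted p = 0.000266 and 0.000324).

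Gyg encodes glycogenin, the protein primer on which a new chain starts. It was at -0.42, -0.32, -0.21 and 0.08 in mutants and 0.02, 0.31, 0.09 and 0.42 in wild type. Mutant replicate 4 lay above wild type replicate 1, so the groups overlapped. The difference of -0.43 ± 0.15 did not pass (limma adjusted p = 0.10, 95% interval -0.77 to -0.08).

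Glycogen synthase has a liver form, Gys2, and a form of muscle and most other tissues, Gys1. Gys2 was at -0.37, -0.50, -0.58 and -0.35 in mutants and 0.34, 0.42, 0.46 and 0.47 in wild type. The groups were separate and the spread was small, with an SD of 0.06 (n = 4) in wild type and 0.11 (n = 4) in mutants. Gys2 fell by 0.87 ± 0.10 (1.83-fold, limma adjusted p = 0.00174). Gys1 was at -0.81, -0.91, -0.43 and -0.02 in mutants and 0.03, 1.17, 0.09 and 1.10 in wild type. The groups just failed to meet, and wild type replicates 2 and 4 stood far above the other 6 mice. The difference of -1.14 ± 0.34 was larger than that of Gys2 but did not pass (limma adjusted p = 0.0591, 95% interval -1.92 to -0.36), and without wild type replicate 1 it was -1.33 and passed (adjusted p = 0.0450).

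Skeletal muscle transcripts moved with Gys1. The mean of 6 muscle markers was -2.64, -3.22, -1.09 and 0.42 in the mutants and -0.35, 2.08, 0.49 and 2.49 in wild type. The mice highest for these markers, wild type replicates 2 and 4, were the highest for Gys1, and mutant replicates 1 and 2 were the lowest for both. With the marker mean as a covariate, an alternative chosen after seeing the data, the Gys1 difference was -0.22 (limma adjusted p = 0.602). Under the same covariate Ugp2 differed by -1.56 and Gbe1 by -1.31, and both passed (limma adjusted p = 0.0121 and 0.0229). Gys2 at -0.81 and Pgm1 at -0.78 kept most of their size but did not pass (limma adjusted p = 0.0503 and 0.0624). That fit has 1 fewer degree of freedom and the marker mean is itself lower in the mutants, and over all rows it left 354 lower and 311 higher calls.

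**Figure D2:**
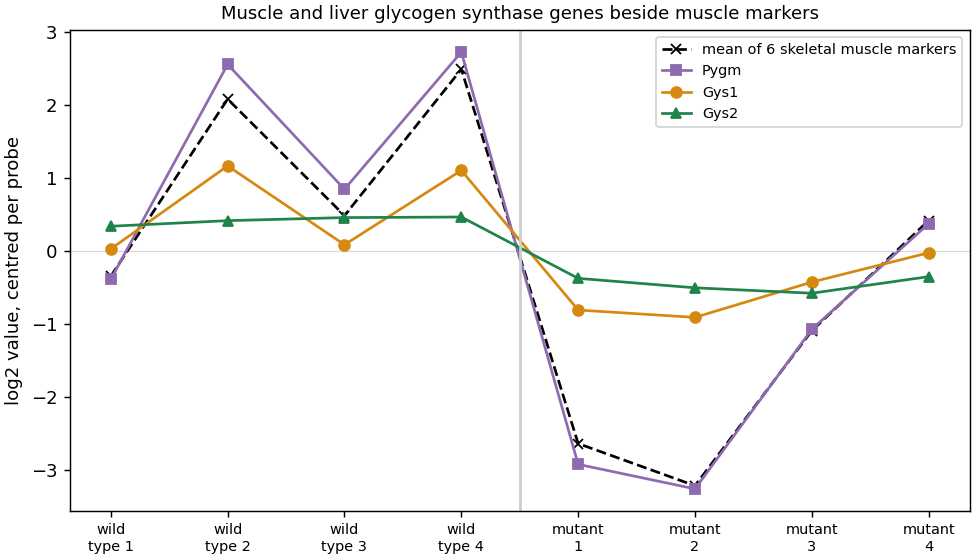
Centred log2 values of Gys1, Gys2 and the muscle phosphorylase gene Pygm in each mouse are drawn beside the mean of 6 skeletal muscle markers, which leaves Pygm out. Gys1 and Pygm peak with the markers in wild type replicates 2 and 4, while Gys2 stays between 0.34 and 0.47 in wild type and between -0.58 and -0.35 in mutants.

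Gbe1 encodes the branching enzyme, which moves short chains to make the branch points of glycogen. It was at -0.58, -0.39, -0.66 and -0.86 in mutants and 0.47, 0.60, 0.50 and 0.43 in wild type. No mutant came near the wild-type range, and the mutants were the more spread group. Gbe1 fell by 1.12 ± 0.12 (2.18-fold, limma adjusted p = 0.00159).

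Of the breakdown enzymes none passed as a gene average, where 17.6% of named genes passed in either direction. With so few genes, none passing is not far from that share. Pygl, the liver phosphorylase that releases glucose 1-phosphate, was at -0.17, -0.07, -0.02 and -0.20 in mutants and -0.16, 0.33, 0.29 and 0.46 in wild type. Wild type replicate 1 lay among the mutants and the other 3 wild-type mice lay above them. The difference of -0.35 ± 0.15 did not pass (limma adjusted p = 0.162). Without wild type replicate 1 it was -0.47 and passed (limma adjusted p = 0.0355). Gaa, the lysosomal alpha-glucosidase, was at 0.18, 0.04, -0.10 and 0.09 in mutants and -0.40, -0.22, -0.05 and 0.07 in wild type. The groups overlapped, and the difference of 0.20 ± 0.13 did not pass (limma adjusted p = 0.278, 95% interval -0.10 to 0.51).

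Phka2 encodes the liver regulatory alpha subunit of phosphorylase kinase, and the values of its 5 probes disagreed. The gene average was -0.56, -0.26, 0.07 and -0.11 in mutants and -0.06, -0.16, -0.02 and 0.16 in wild type. These groups overlapped, and the difference of -0.19 ± 0.15 did not pass (limma adjusted p = 0.376). The 2 probes annotated to the RefSeq mRNA were both lower in every mutant than in any wild-type mouse. Probe A_52_P671916 was at -0.45, -0.51, -0.31 and -0.40 in mutants and 0.40, 0.39, 0.28 and 0.53 in wild type, a difference of -0.82 ± 0.10 (limma adjusted p = 0.00227). Probe A_52_P187217 was at -0.98, -0.32, -0.40 and -0.62 in mutants and 0.43, 0.71, 0.52 and 0.36 in wild type, a difference of -1.08 ± 0.17 (limma adjusted p = 0.00528). Over all 41174 probes 9.92% passed as lower.

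The other 3 Phka2 probes are annotated to cDNA clones. A_51_P239970 was at 0.13, -0.11, 0.12 and 0.14 in mutants and 0.16, -1.0, -0.75 and -0.12 in wild type, and A_51_P368950 was within 0.2 of it in each mouse. Both were lowest in wild type replicates 2 and 3, the arrays with the lowest control features, and their differences of 0.50 ± 0.26 and 0.51 ± 0.26 did not pass (limma adjusted p = 0.201 and 0.197). A_52_P657963 ran from -1.58 to 0.74 in mutants and from -1.43 to 0.59 in wild type, and its difference of -0.08 ± 0.58 did not pass (limma adjusted p = 0.929). In a refit chosen after seeing the data, named genes kept their RefSeq mRNA probes only, and all probes without a single symbol stayed in. Phka2 then fell by 0.95 (limma adjusted p = 0.00165), and 5 of the 10 genes passed, all lower. Over all rows of that refit 2880 were lower and 1836 higher, against 2505 and 1828 in the main fit. The part of the control features in the clone probes was not tested.

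**Figure D3:**
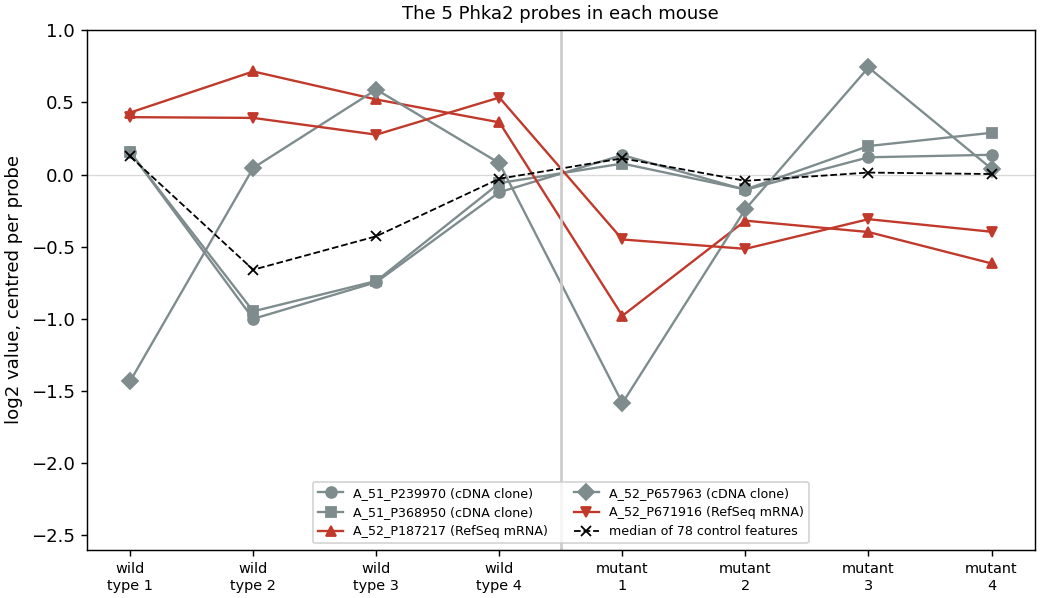
Lines give the centred log2 value of the 5 Phka2 probes in each mouse, red for the 2 probes annotated to the RefSeq mRNA and grey for the 3 annotated to cDNA clones, with the median of 78 control features dashed. The red lines lie above 0 in all 4 wild-type mice and below 0 in all 4 mutants, while 2 grey lines dip with the control features in wild type replicates 2 and 3.

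Differences between 2 genes within an array do not depend on a shift of the whole array, and 6 pairs were compared with an exact two-sided permutation test, whose smallest possible p for 4 against 4 mice is 0.0286. For 3 enzymes of synthesis the difference between genotypes exceeded that of phosphorylase. Of the enzymes of synthesis not paired with Pygl, Pgm1 differed by -0.85, Gys1 by -1.14, Gyg by -0.43 and Pgm2 by 0.22. Pygl itself differed by -0.35. The 2 RefSeq mRNA probes of Phka2, a breakdown gene, differed by -0.82 and -1.08, and its 3 clone probes by 0.50, 0.51 and -0.08. Gys2 minus Pygl averaged -0.34 ± 0.19 (SD, n = 4) among mutants against 0.19 ± 0.22 (SD, n = 4) among wild-type mice, a change of -0.53. The same contrast changed by -1.37 for Ugp2 minus Pygl and by -0.78 for Gbe1 minus Pygl. Pgm1 minus Pgm2 changed by -1.07 and Gys2 minus Gaa by -1.08. The 2 groups were separate in each of these 5 pairs (exact permutation p = 0.0286, adjusted over the 6 pairs 0.0343). The pairs were chosen with earlier results of these data known, and Pygl and Gys2 recur among them. They are therefore neither independent of each other nor a separate test of the gene differences. Quantile normalization, which is more than a shift, gave changes of -0.68 for Gys2 minus Pygl and -1.24 for Pgm1 minus Pgm2, with the same adjusted exact permutation p for these 5 pairs. Gys2 minus Gys1 ran from -0.33 to 0.43 in mutants and from -0.75 to 0.37 in wild type, so that a difference between the 2 synthase genes was not detected (change 0.27, exact permutation p = 0.486).

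**Figure D4:**
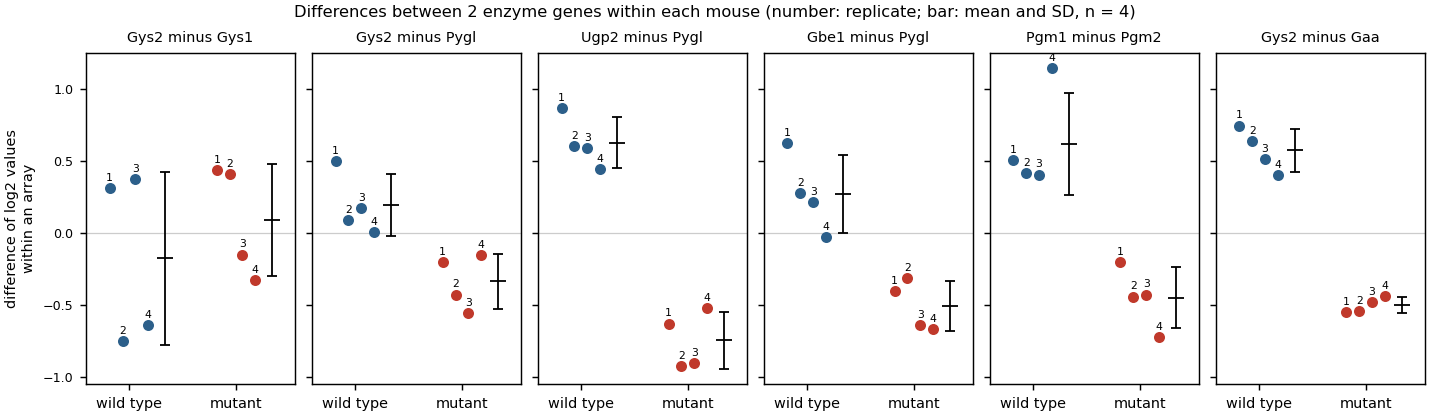
Each panel plots, per mouse, the log2 value of 1 enzyme gene minus that of another on the same array, with the group mean and SD. The wild-type mice lie above the mutants in 5 panels, and the groups overlap for Gys2 minus Gys1.

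Neighbouring genes of the pathway passed at about the share of all genes. Of 39 further genes listed by role, 35 were measured, and 5 fell and 1 rose, which is 17.1% against 15.5% of all rows and 17.6% of named genes. Their median difference was -0.22. Slc2a2, the glucose transporter of the hepatocyte membrane, was at -1.20, -0.64, -0.47 and -0.69 in mutants and 0.76, 0.67, 0.74 and 0.50 in wild type, and fell by 1.42 ± 0.17 (limma adjusted p = 0.00208). With the muscle marker mean as a covariate its difference was -1.39 and did not pass (limma adjusted p = 0.0535). Around UDP-glucose, 2 of 4 measured genes fell, where 10.5% of named genes did. Galt, which exchanges UDP-glucose for UDP-galactose, fell by 1.0 ± 0.13 (limma adjusted p = 0.00302), and Ugdh, which oxidises UDP-glucose to UDP-glucuronate, fell by 0.83 ± 0.18 (limma adjusted p = 0.0209). Under the muscle covariate Galt at -0.85 did not pass and Ugdh at -1.19 did (limma adjusted p = 0.0741 and 0.0475). The Ugdh call was lost without mutant replicate 3, wild type replicate 2 or wild type replicate 3 (adjusted p = 0.0527, 0.0561 and 0.0577), and it was 0.148 without both of these wild-type mice. The other 2 genes also encode enzymes that use UDP-glucose and did not pass. Ugcg, which adds glucose to ceramide, differed by -0.04 ± 0.13 (limma adjusted p = 0.832), and Uggt1, which adds glucose to misfolded glycoproteins in the endoplasmic reticulum, by -0.15 ± 0.19 (limma adjusted p = 0.594).

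Among 10 genes that bring protein phosphatase 1 to glycogen or belong to the laforin and malin system, 2 fell, which is 20% against 17.6% of named genes in either direction. Nhlrc1, which encodes malin, fell by 0.76 ± 0.12 (limma adjusted p = 0.00596). Its difference was -0.54 under the muscle covariate and did not pass (limma adjusted p = 0.120). Ppp1r3c, the targeting subunit also called PTG, was at -0.16, -0.51, -0.34 and -0.37 in mutants and 1.18, 0.28, 0.15 and 0.59 in wild type. It fell by 0.89 ± 0.23 (limma adjusted p = 0.0352), a call that was lost under 8 of 20 alternatives, among them those without any 1 of the 4 mutants or wild type replicate 4 (adjusted p = 0.0589 to 0.0904) and with the values as deposited (adjusted p = 0.0630). Ppp1r3b, the liver targeting subunit, differed by 0.12 ± 0.16 and did not pass (limma adjusted p = 0.602). G6pc, the catalytic subunit of glucose 6-phosphatase, was the gene that rose. It was at 0.35, 0.26, 0.18 and 0.10 in mutants and -1.02, -0.60, -0.54 and -0.12 in wild type, a difference of 0.79 ± 0.19 (limma adjusted p = 0.0268). Leaving out 1 mouse ended that call for mutant replicates 1, 2 and 3 and for wild type replicates 2 and 3, with adjusted p = 0.0577 to 0.0684. It was also lost with quantile scaling (adjusted p = 0.0704) and with the replicate number as a block (limma adjusted p = 0.0958). The same held with the control features or the muscle markers as a covariate (limma adjusted p = 0.0511 and 0.135). With wild type replicates 2 and 3 both left out the limma adjusted p was 0.148. In all, the G6pc call was lost under 10 of 20 alternatives.

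Of the 6 further breakdown genes measured, 0 passed by the limma test, where 17.6% of named genes passed in either direction. An unadjusted p under 0.05 was found for 3 of them, against 30.3% of all rows. Pygm, the muscle phosphorylase, was at -2.92, -3.26, -1.07 and 0.37 in mutants and -0.39, 2.56, 0.85 and 2.73 in wild type. It put the 8 mice in the same order as the mean of the other muscle markers, and its difference of -3.16 ± 0.99 did not pass (limma adjusted p = 0.0722). Hk2 and Ppp1r3a, also genes of muscle, were likewise highest in wild type replicates 2 and 4 (1.66 and 1.51, and 1.56 and 2.07) and did not pass (limma adjusted p = 0.143 and 0.222).

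**Figure D5:**
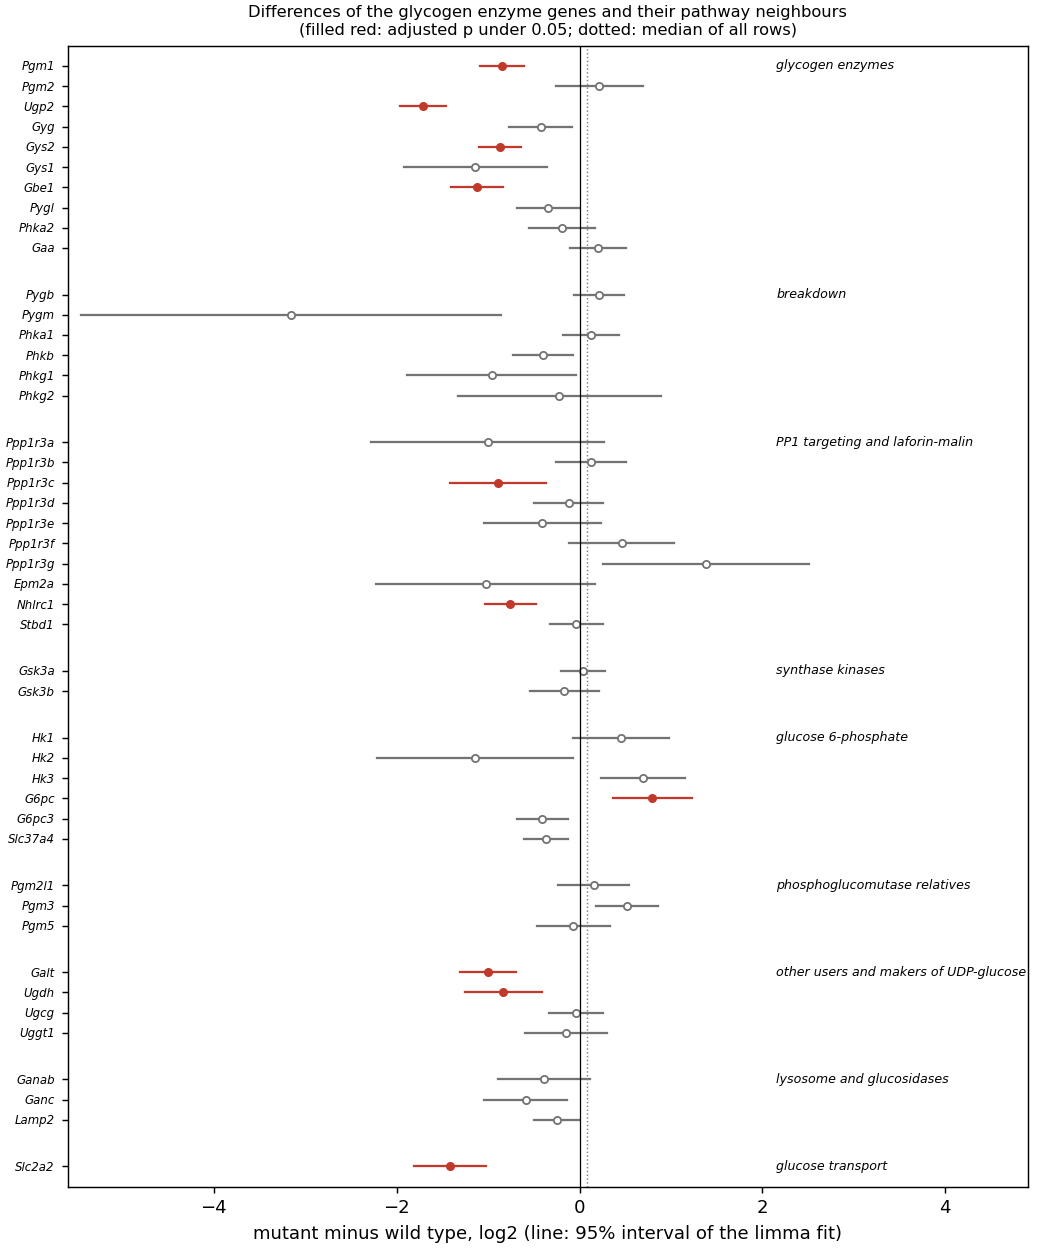
Points give each gene's difference between mutants and wild type in log2 units with the 95% interval of the limma fit, grouped by role, and filled red points passed. Ugp2, at -1.72, lies lowest among the genes that passed, G6pc is the only filled point above 0, and Pygm has the widest interval.

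The genes closest to Gys2 in pattern were found by Euclidean distance over the 8 arrays among the other 19531 named genes, with the 10 enzymes left out. They were Slc1a4, a neutral amino acid transporter (0.17), Rfc5, a clamp loader subunit of DNA replication (0.20), Klhl18 (0.20), the receptor gene Epha1 (0.21) and the mitochondrial sulfide oxidase gene Sqor (0.21). The median distance of all named genes was 1.61. Among the enzymes Pgm1 was the nearest to Gys2, at 0.44 and rank 176, followed by Gbe1 at 0.61 and rank 655. Ugp2, with the larger difference, lay at 1.20, and Pgm2 was the farthest at 1.75.

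The scaling between arrays did not change which direction any of the 10 genes took. With the values as deposited the median of all rows moved from 0.08 to 0.20, and the rows called went from 1828 higher and 2505 lower to 2449 higher and 1537 lower. Taken relative to the median of all rows, Ugp2 differed by -1.80, Gbe1 by -1.20, Gys2 by -0.95 and Pgm1 by -0.93. These 4 genes passed under every scaling tried, without any 1 of the 8 mice and with both mice of low control features left out.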

How the data were processed

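The deposited table holds 41252 probes, and per the labels' protocols the arrays were 1-colour Agilent arrays. The authors deposited normalised values centred on each probe's median, and the method, the log base and the scaling are not given in the sources used here. The deposited values were read as log2 from their range. The 78 control features were set aside, and 0 columns were unused. The annotation gave 1 symbol to 32664 probes, more than 1 to 45 and no symbol to 8465. Each array was shifted to a common 75th percentile, probes of a gene were averaged into 28042 rows, and limma 3.58.1 in R 4.3.3 (lmFit, eBayes) compared 4 mutants with 4 wild-type mice. Plots were made in Python 3.11.15 with matplotlib 3.10.9.

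The 10 genes, the lists, pairs and named genes (every enzyme, pathway genes that passed, Ppp1r3c, Ppp1r3b and G6pc, and the 5 nearest to Gys2) were chosen with earlier results of these data known. On simulated data for this comparison, with 28042 rows, the fit recovered 38 of 100 genes shifted by 1 log2 unit and 76 of 100 shifted by 2, with 7 false calls. No other row was shifted in that simulation, while 15.5% of rows passed in the real data. The adjustment therefore differs, and the recovered shares do not give the power of the real comparison. The number of arrays limits the precision. Alternatives covered scaling, probes, variance model, weights, mice left out and covariates.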

Additional observations from a re-analysis of the deposited data

Results flagged for a closer look

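In 1 of 48 groups of 4 mice examined, a single mouse lay far from the others. For the Phka2 probe A_51_P239970, annotated to a cDNA clone, mutant replicate 2 was at -0.11 while the other mutants lay between 0.12 and 0.14. Chance flags about 1 in 20 such groups.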

How the results depend on the processing

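The 4 lower calls among the 10 enzyme genes and the 0 higher calls held under every scaling, with robust variance, array weights, the control features as a covariate and an adjusted p under 0.01. The lower count was 4 to 6 when 1 mouse was left out, 5 with probes tested singly, 2 with the muscle markers as a covariate, and 8 at an unadjusted p per probe. The Phka2 difference turned to 0.0062 with the muscle covariate and was 0.50 and 0.51 for the 2 clone probes, and Ppp1r3b turned to -0.26 with that covariate. The cause was not tested. Pathway genes called lower were 8 with quantile scaling, 1 with the muscle covariate, 3 at an adjusted p under 0.01 and 13 unadjusted, and 4 to 7 with 1 mouse left out. Those called higher were 3 as deposited, 0 with quantile scaling, 2 with array weights, 0 with both low-control mice left out, 0 with the control or the muscle covariate, 3 with RefSeq mRNA probes, 0 at 0.01, 4 with probes singly, 6 unadjusted, and 0 to 2 with 1 mouse left out. All rows called lower were 1537 as deposited, 887 without wild type replicates 2 and 3, 354 with the muscle covariate, 947 at 0.01, 4085 with probes singly and 7520 unadjusted. Rows called higher were 879, 311, 769 and 5235 without those mice, with the muscle covariate, at 0.01 and unadjusted. With 1 mouse left out they were 1542 to 1993 lower and 1314 to 1703 higher.

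Mutant and wild-type mice share replicate numbers, and the labels do not say whether these pair the mice. Deviations from the group means had correlations of 0.02, 0.08, -0.10 and 0.10 between same-numbered mice. Between differently numbered mice they were -0.10 to 0.13. These correlations cannot show how the mice were handled, and the main fit did not pair them. With the replicate number as a block the 4 enzyme genes still passed and none rose, 4 pathway genes were lower and 0 higher, and 1019 rows were lower and 1011 higher. Within-array differences kept their sign under every mouse left out: 0.08 to 0.45 for Gys2 minus Gys1, -0.59 to -0.42 for Gys2 minus Pygl, -1.44 to -1.29 for Ugp2 minus Pygl, -0.88 to -0.66 for Gbe1 minus Pygl, -1.15 to -0.89 for Pgm1 minus Pgm2 and -1.13 to -1.02 for Gys2 minus Gaa. With quantile normalization, added after seeing the data, Gys2 minus Gaa was -1.24, and the other 5 pairs moved by less than 1 SD. No p is given for the within-array differences with 1 mouse left out. Averaging by current symbol changed no row, since every annotated symbol with a gene ID in RefSeq was current. Centred values give no signal over background.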
